A study of Mus musculus with 13 samples.

Results

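Ligands and receptors of the tumor necrosis factor (TNF) superfamily are represented by 40 of the 45777 genes in the count table: 16 ligands and 24 receptors, chosen by biotype and name, as protein-coding genes with the symbol Tnf, Lta, Ltb, Ltbr, Fas, Fasl, Cd40 or Cd27 or a symbol beginning with Tnfsf or Tnfrsf. No measured value of these libraries enters that rule. Hippocampal RNA was sequenced 3 days after status epilepticus (SE), a prolonged seizure that was induced here with pilocarpine, an agonist of muscarinic acetylcholine receptors, or after saline (sham). The groups were 3 SE-cKO, 4 sham-cKO, 3 SE-WT and 3 sham-WT mice. All mice carried Nestin-Cre; cKO mice were Nestin-Cre::Lin28aloxP/loxP, lacking the RNA-binding protein LIN28A in Nestin-Cre lineages, and WT mice were Nestin-Cre::Lin28a+/+. Pilocarpine was given at 260 mg/kg to males and 280 mg/kg to females, at 6 weeks of age, and the sex of each mouse was not labelled. Xist and the Y-linked gene Ddx3y split the libraries without overlap. A female pattern marked these replicates: sham-WT 2 and 3, sham-cKO 3, SE-WT 2, SE-cKO 2 and 3. They had 12725 to 38319 counts of Xist and 0 to 41 of Ddx3y. The others had 0 to 240 counts of Xist and 4446 to 7860 of Ddx3y. Sex was thus unbalanced in every comparison, and the likely dose between SE-cKO and SE-WT mice. Xist was a covariate in an alternative fit, and dose was not tested. Nestin-Cre acts in neural progenitors and in the neurons and glia that descend from them throughout the nervous system, so the deletion was not limited to the hippocampus. Each library was made from whole hippocampal tissue, and fewer cells of a type and less RNA per cell cannot be told apart in it.

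Ligands of the TNF superfamily are mostly trimeric membrane proteins, some of them shed, that bind cysteine-rich receptors on neighboring cells. Receptors with a death domain, such as TNFR1 and FAS, can assemble caspase-activating or NF-kB-activating complexes, whereas the others recruit TRAF adaptors and drive NF-kB and MAP kinase signaling. In the brain, TNF is made mainly by microglia and other myeloid cells, and it is known to act on synaptic transmission as well as on inflammation.

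The sequences upstream of 4 members are shown because 3 of them are the ligands that had 0 counts in every sham-cKO library and rose in SE-cKO libraries, and Tnfrsf12a had the highest level per transcript length of the receptors that rose. Each is the 250 bases before an annotated RefSeq start on GRCm38.p6, printed 5′ to 3′ on the gene's own strand, and the capitals mark a TATAAA match on either strand. For Tnfsf8 the annotated gene extends to chr4:63861508, so most of its window lies inside the gene rather than upstream of it. Tnf lies at chr17:35202008-35202257 (minus strand), Tnfsf11 at chr14:78308044-78308293 (minus strand), Tnfsf8 at chr4:63861285-63861534 (minus strand) and Tnfrsf12a at chr17:23677450-23677699 (minus strand).
Tnf: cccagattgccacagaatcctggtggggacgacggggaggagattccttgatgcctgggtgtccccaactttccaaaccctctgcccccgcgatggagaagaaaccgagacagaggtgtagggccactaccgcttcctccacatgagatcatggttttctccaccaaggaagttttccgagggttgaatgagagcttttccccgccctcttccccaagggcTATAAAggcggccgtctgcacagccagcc
Tnfsf11: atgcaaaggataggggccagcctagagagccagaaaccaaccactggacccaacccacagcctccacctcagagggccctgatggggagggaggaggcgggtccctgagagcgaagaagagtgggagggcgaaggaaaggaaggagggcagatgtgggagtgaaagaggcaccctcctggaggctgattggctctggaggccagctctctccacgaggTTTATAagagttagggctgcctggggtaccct
Tnfsf8: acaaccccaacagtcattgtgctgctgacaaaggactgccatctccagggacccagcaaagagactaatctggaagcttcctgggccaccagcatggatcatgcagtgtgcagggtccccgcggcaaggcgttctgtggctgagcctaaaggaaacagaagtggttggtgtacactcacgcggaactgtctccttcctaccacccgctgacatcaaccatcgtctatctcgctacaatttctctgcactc
Tnfrsf12a: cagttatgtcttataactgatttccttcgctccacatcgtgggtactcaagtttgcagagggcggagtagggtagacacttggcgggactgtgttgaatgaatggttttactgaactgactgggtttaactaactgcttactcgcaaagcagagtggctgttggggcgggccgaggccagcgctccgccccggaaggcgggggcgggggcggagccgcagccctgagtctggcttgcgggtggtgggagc
The TATAAA match began 29 bases before the start in Tnf and 32 bases before it in Tnfsf11, where it reads on the opposite strand. Of the 32851 promoters in the RefSeq table, 12.4% held this match, and 6 of the 36 promoters annotated for 32 of the members did. A kappaB match, the motif bound by NF-kB, stood in the upstream bases of Ltb, Tnfrsf8 and Tnfrsf9 (3 of 36, against 3.90% of all promoters). The AP-1 motif TGANTCA stood in 6 of 36, among them Fas and Tnfsf14, against 6.75% of all promoters. Tnfsf8 and Tnfrsf12a held none of the 3 motifs in this window, and Tnfrsf12a was the richest of the 4 in CpG dinucleotides, with 15 against a median of 6 over all promoters. These matches describe letters in a window and were not tested for binding. The promoters of Cd40, Tnfrsf10b, Tnfrsf11b, Tnfrsf22, Tnfrsf26, Tnfsf12, Tnfsf4 and Tnfsf9 were not analysed here.

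Total counts ran from 59659977 to 84354243 per library, so that 3 counts, the limit that a count of 0 allows, corresponded to 0.0362 to 0.0510 CPM, a library's counts scaled to a common total with TMM normalization; this limit covers counting error only. Lin28a itself had 3 counts in SE-WT replicate 3 and 0 in the other 12 libraries, so the genotype labels could not be checked by its level. Genes of striatal neurons were high in SE-WT replicate 2 (summed level 1120 CPM, against 37.3 to 94.5 CPM in the other libraries), and genes of thalamic neurons were high in sham-cKO replicate 2 (1019 CPM) and SE-WT replicate 3 (627 CPM), against 83.7 to 148 CPM elsewhere. Markers of hippocampal neurons were present in every library, with sums of 652 to 1182 CPM in SE-cKO and 1369 to 1723 CPM in sham-cKO libraries, and of 719 to 1606 CPM in SE-WT and 1361 to 1805 CPM in sham-WT libraries. Choroid plexus markers varied more widely, at 17.1 to 1109 CPM in SE-cKO, 23.7 to 2664 CPM in sham-cKO, 14.7 to 656 CPM in SE-WT and 51.4 to 4407 CPM in sham-WT libraries, and were highest in sham-WT replicates 3 and 2, sham-cKO replicate 3 and SE-cKO replicate 1; none of the 5 was called in any comparison. Where a call was lost without the 3 libraries with striatal or thalamic signal, its value without them is given.

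The receptors carried most of the superfamily's RNA in every group. On the TPM scale, which corrects for transcript length, the summed receptor level was 154 ± 23.9 in SE-cKO mice and 75.7 ± 5.44 in sham-cKO mice (SD, n = 3 and 4), and 119 ± 24.1 in SE-WT mice and 72.0 ± 5.99 in sham-WT mice (SD, n = 3 each). The summed ligand level was 13.4 ± 0.886 TPM in SE-cKO mice and 4.61 ± 0.472 TPM in sham-cKO mice, and 9.12 ± 2.53 TPM in SE-WT mice and 5.08 ± 0.229 TPM in sham-WT mice. In sham mice of both genotypes the most abundant members were Tnfrsf19 (mean TPM 28.6 in sham-cKO and 28.9 in sham-WT) and Tnfrsf21 (28.3 and 27.4 in the same groups), ahead of Ltbr (3.81 and 3.47). After SE, Tnfrsf12a stood first in SE-cKO mice with a mean of 33.4 TPM and the third in SE-WT mice with 17.7 TPM. The first place rested on SE-cKO replicate 3: Tnfrsf12a had 20.0, 23.7 and 56.4 TPM in the SE-cKO libraries, and without that replicate its mean was 21.8 TPM, under the 35.2 TPM of Tnfrsf19. Tnfrsf1a took the fourth place in both SE groups, with 18.8 TPM in SE-cKO and 13.1 TPM in SE-WT mice.

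The comparison of SE with sham mice within each genotype asked which members changed 3 days after SE. Members changed in 1 direction only: in edgeR's quasi-likelihood test, 16 rose and 0 fell among the 33 tested in SE-cKO against sham-cKO mice (48.5%), and 10 rose and 0 fell among the 29 tested in SE-WT against sham-WT mice (34.5%). Over all genes tested, 13.8% rose and 8.92% fell in the cKO comparison, and 4.57% rose and 0.832% fell in the WT comparison. TNF, its 2 receptors, FAS, the lymphotoxin-beta receptor and the TWEAK receptor were among those that rose in both. DESeq2 called 18 members higher in cKO mice and 12 in WT mice, against 16.4% and 9.13% of all genes it tested, and its shares of genes lower were 13.2% and 3.84%. By class, 4 of 11 tested ligands and 12 of 22 tested receptors rose in cKO mice, and 2 of 9 tested ligands and 8 of 20 tested receptors rose in WT mice.

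Not all 40 members could be tested. The filter on low counts removed 7 members from the cKO comparison and 11 from the WT comparison. Of those that passed, 25 and 21 also passed in the sham libraries taken alone, and 12 and 8 of these rose. The other 8 in each comparison passed only with the SE libraries included, which favored a rise without forcing one. Tnfrsf9, for example, was among them in WT mice, with a log2 fold change of -0.22 ± 0.71 SE, adjusted p = 0.899. Of each 8, 4 rose in cKO mice and 2 in WT mice. These were all of the ligands called: Tnf, Tnfsf8, Tnfsf9 and Tnfsf11 in cKO mice, and Tnf and Tnfsf11 in WT mice. Their p-values describe members tested because of their SE level and are no independent support. SE and sham libraries did not overlap for 18 of 33 tested members in cKO mice and 18 of 29 in WT mice, all higher after SE. Of all genes tested, 17.9% and 16.0% lay higher without overlap in the same comparisons. The 18 include members that passed the filter only with the SE libraries, for which this is no independent support. In cKO mice these were Ltb, Tnf, Tnfsf8, Tnfsf9 and Tnfsf11. In WT mice these were Tnf, Tnfrsf10b, Tnfrsf23, Tnfsf8, Tnfsf9 and Tnfsf11. All 10 members called in WT mice were among the 16 called in cKO mice. With the 3 libraries of striatal or thalamic signal omitted, a choice made after the data were seen that leaves SE-WT replicate 1 as the only SE-WT library and takes the spread from the sham-WT libraries, 17 members were called in cKO mice and 7 in WT mice. Leaving out 1 library moved the WT count to 4 without sham-WT replicate 2 or 3, to 5 without sham-WT replicate 1 and to 6 without SE-WT replicate 1.

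Among the ligands, Tnf had 1.83, 2.78 and 2.64 CPM in SE-cKO libraries, against 0 counts in all 4 sham-cKO libraries, and 1.05, 0.650 and 0.174 CPM in SE-WT libraries, against 0 counts in all 3 sham-WT libraries. TNF is the founding cytokine of the family. Each SE library therefore lay above each sham library, and the lowest SE value was that of SE-WT replicate 3. Tnf passed the filter only through its SE level. Set against the limit of 3 counts in each sham library, averaged over the group, its mean was at least 55.1-fold higher in SE-cKO than in sham-cKO mice (adjusted p = 0.000333). In SE-WT mice it was at least 14.3-fold higher than in sham-WT mice (adjusted p = 0.0434). These bounds, and those of Tnfsf11 and Tnfsf8 below, leave out the spread among SE libraries. The adjusted p-values belong to edgeR's own fold changes and do not test these ratios. The WT call was lost without any 1 of the 3 sham-WT libraries (adjusted p 0.0982, 0.132 and 0.0986 with sham-WT replicates 1, 2 and 3 omitted in turn), and also when SE-WT replicate 1 (0.119) or SE-WT replicate 2 (0.0722) was omitted. With SE-WT replicate 1 as the only SE-WT library, and the spread taken from the sham-WT libraries, it was 0.0504.

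Tnfsf11 encodes RANKL, known for driving osteoclast formation through its receptor RANK. Tnfsf11 had 0.881, 0.359 and 1.28 CPM in SE-cKO libraries, against 0 counts in the 4 sham-cKO libraries, and 0.463, 0.705 and 0.298 CPM in SE-WT libraries, against 0 counts in the 3 sham-WT libraries. No SE library overlapped the sham libraries, and the 2 highest values were those of SE-cKO replicates 3 and 1. Tnfsf11 passed the filter only through its SE level. It was at least 19.1-fold higher in SE-cKO than in sham-cKO mice (adjusted p = 0.00425) and at least 11.2-fold higher in SE-WT than in sham-WT mice (adjusted p = 0.028). Leaving out any 1 of the 6 libraries ended the WT call, with adjusted p 0.0634, 0.0925 and 0.0699 without sham-WT replicates 1, 2 and 3 in turn and 0.0865, 0.0770 and 0.0541 without SE-WT replicates 1, 2 and 3 in turn. With SE-WT replicate 1 as the only SE-WT library, and the spread taken from the sham-WT libraries, it was 0.177.

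Tnfsf8 encodes CD30 ligand, a membrane protein best known from activated lymphocytes and myeloid cells. Its level was 1.17, 2.04 and 2.25 CPM in SE-cKO libraries, against 0 counts in the 4 sham-cKO libraries, and 1.37, 0.885 and 0.274 CPM in SE-WT libraries, against 0.125, 0 and 0 CPM in sham-WT libraries. The SE libraries lay above the sham libraries in both genotypes. Tnfsf8, in cKO mice again tested only through its SE level, was at least 41.4-fold higher in SE-cKO than in sham-cKO mice (adjusted p = 0.000661), whereas the difference between SE-WT and sham-WT mice was not called (log2 fold change 4.20 ± 1.34 SE, adjusted p = 0.132). Tnfsf9, the ligand of CD137 on T cells, had 0.603, 0.936 and 1.32 CPM in SE-cKO libraries, against 0, 0.141, 0 and 0.133 CPM in sham-cKO libraries. In WT mice Tnfsf9 had 1.34, 0.802 and 0.883 CPM in SE-WT libraries, against 0, 0.227 and 0.340 CPM in sham-WT libraries. Again no SE library overlapped a sham library of its genotype. Tnfsf9, tested in cKO mice only through its SE level, rose in SE-cKO mice (log2 fold change 3.85 ± 1.16 SE, adjusted p = 0.0452) and was not called in SE-WT mice (2.42 ± 1.08 SE, adjusted p = 0.259). The cKO call for Tnfsf9 was lost without sham-cKO replicate 1, 3 or 4 (adjusted p 0.0630, 0.0556 and 0.0639) and without SE-cKO replicate 1, 2 or 3 (0.0678, 0.108 and 0.125).

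**Figure D1:**
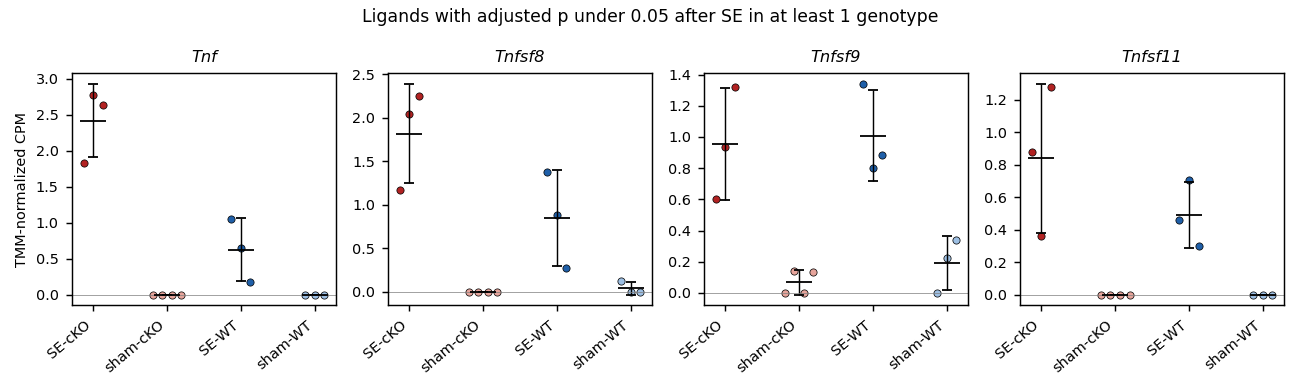
TMM-normalized CPM (y axis, linear) of the 4 ligands called in at least 1 genotype, by group; points are libraries, the long dash is the group mean and the bar its SD (n = 3, and 4 for sham-cKO). Tnf lies at 0 in all 7 sham libraries and between 0.174 and 2.78 CPM in the 6 SE libraries.

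The other 12 ligands were not called in either genotype. Tnfsf14, which encodes LIGHT, the ligand of HVEM and of the lymphotoxin-beta receptor, had 0.121, 0.513 and 0.955 CPM in SE-cKO libraries and 0.192, 0 and 0.0497 CPM in SE-WT libraries, against 0 counts in all 7 sham libraries. It passed the low-count filter in neither comparison of SE with sham. Tnfsf10, which encodes the death-inducing ligand TRAIL, had mean levels of 4.89 CPM in SE-cKO and 2.05 CPM in sham-cKO mice and of 3.36 CPM in SE-WT and 2.05 CPM in sham-WT mice (log2 fold change 1.31 ± 0.47 SE, adjusted p = 0.0795 in cKO mice and 0.71 ± 0.30 SE, adjusted p = 0.231 in WT mice). Tnfsf13b, the B cell survival factor BAFF, had log2 fold changes of 0.94 ± 0.56 SE, adjusted p = 0.282 in cKO mice and 0.73 ± 0.38 SE, adjusted p = 0.335 in WT mice.

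Tnfsf12, which encodes TWEAK, and Tnfsf13, which encodes APRIL, lie side by side on chromosome 11, and the gene model Tnfsfm13 spans both, so the division of reads among the 3 is uncertain. Summed over the 3 models, the level was 6.49 to 9.25 CPM in SE-cKO libraries and 3.71 to 4.75 CPM in sham-cKO libraries, and 4.69 to 8.36 CPM in SE-WT libraries and 5.17 to 7.71 CPM in sham-WT libraries. The sums did not overlap between SE and sham in cKO mice and overlapped in WT mice. The sham-cKO sums also lay wholly below the sham-WT sums, whereas the SE-cKO and SE-WT sums overlapped. A rise at this locus limited to cKO mice is therefore not shown. Tnfsf12 alone was not called, with log2 fold changes of 1.22 ± 0.40 SE, adjusted p = 0.0606 in cKO mice and 1.08 ± 0.54 SE, adjusted p = 0.308 in WT mice. Lta (lymphotoxin alpha), Tnfsf4 (OX40 ligand), Tnfsf15 (TL1A) and Tnfsf18 (GITR ligand) did not pass the filter in any test, and their highest counts in a library were 11, 3, 9 and 9.

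Of the receptors with a death domain, Tnfrsf1a, which encodes TNFR1, the main signaling receptor of soluble TNF, had 28.9, 30.1 and 30.2 CPM in SE-cKO libraries, against 3.10, 2.74, 3.54 and 3.48 CPM in sham-cKO libraries. In WT mice Tnfrsf1a had 23.8, 15.6 and 23.6 CPM in SE-WT libraries, against 3.98, 4.61 and 4.27 CPM in sham-WT libraries. The groups were far apart in both genotypes, and SE-WT replicate 2 was the lowest SE library. Tnfrsf1a rose by a log2 fold change of 3.26 ± 0.14 SE, adjusted p = 1.35e-05 in SE-cKO mice and of 2.29 ± 0.21 SE, adjusted p = 0.0024 in SE-WT mice. These calls held in every alternative run.

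Fas encodes the receptor of FAS ligand, which triggers apoptosis through caspase-8. Its level was 7.53, 9.03 and 8.47 CPM in SE-cKO libraries, against 1.54, 1.30, 1.30 and 0.733 CPM in sham-cKO libraries, and 5.14, 5.85 and 3.34 CPM in SE-WT libraries, against 1.25, 1.08 and 1.36 CPM in sham-WT libraries. Every SE library exceeded every sham library. Fas rose in SE-cKO mice (log2 fold change 2.82 ± 0.27 SE, adjusted p = 0.000229) and in SE-WT mice (1.96 ± 0.31 SE, adjusted p = 0.015). The WT call was lost without sham-WT replicate 1, 2 or 3 (adjusted p 0.0613, 0.0969 and 0.0627). Fasl, its ligand, was tested only in the cKO comparison among those of SE with sham and was not called (log2 fold change 1.30 ± 1.11 SE, adjusted p = 0.465).

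Tnfrsf10b encodes the mouse death receptor for TRAIL. Tnfrsf10b had 1.74, 1.40 and 1.53 CPM in SE-cKO libraries, against 0.635, 0.0940, 0.358 and 0.283 CPM in sham-cKO libraries, and 1.63, 0.636 and 0.982 CPM in SE-WT libraries, against 0.238, 0 and 0 CPM in sham-WT libraries. SE and sham libraries did not overlap in either genotype, and SE-cKO replicate 1 was the highest library. The rise was called in SE-cKO mice (log2 fold change 2.22 ± 0.55 SE, adjusted p = 0.021) and not in SE-WT mice (3.67 ± 1.34 SE, adjusted p = 0.175). It was lost without sham-cKO replicate 4 (adjusted p = 0.0607), SE-cKO replicate 1 (0.0555) or SE-cKO replicate 2 (0.0528). Tnfrsf23, which encodes a mouse decoy receptor for TRAIL, had 0.881, 2.09 and 1.97 CPM in SE-cKO libraries, against 0.336, 0.172, 0.193 and 0.183 CPM in sham-cKO libraries. In WT mice Tnfrsf23 had 1.02, 0.539 and 0.460 CPM in SE-WT libraries, against 0.288, 0.170 and 0.102 CPM in sham-WT libraries. SE-cKO replicate 1 was the lowest SE-cKO library and still above the sham libraries. Tnfrsf23 rose in SE-cKO mice (log2 fold change 2.92 ± 0.45 SE, adjusted p = 0.00236) and was not called in SE-WT mice (1.83 ± 0.62 SE, adjusted p = 0.152). Tnfrsf22 and Tnfrsf26, its neighbors and paralogs on chromosome 7, were not called, and reads shared by the 3 could have been divided among them.

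Of the receptors without a death domain, Tnfrsf1b, which encodes TNFR2, the receptor that prefers membrane-bound TNF and is abundant in microglia, had 16.3, 24.3 and 17.8 CPM in SE-cKO libraries, against 3.41, 3.84, 3.06 and 2.43 CPM in sham-cKO libraries. In WT mice Tnfrsf1b had 14.5, 6.87 and 11.4 CPM in SE-WT libraries, against 2.46, 2.37 and 2.02 CPM in sham-WT libraries. The SE libraries were all higher, with SE-WT replicate 2 the nearest to the sham libraries. Tnfrsf1b rose in SE-cKO mice (log2 fold change 2.66 ± 0.22 SE, adjusted p = 0.000101) and in SE-WT mice (2.25 ± 0.30 SE, adjusted p = 0.00796). Without sham-WT replicate 2 or 3 the WT call was lost (adjusted p 0.0644 and 0.0520).

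Ltbr encodes the lymphotoxin-beta receptor, an activator of the noncanonical NF-kB pathway. Its level was 26.7, 20.1 and 16.9 CPM in SE-cKO libraries, against 5.00, 6.55, 7.39 and 4.45 CPM in sham-cKO libraries, and 15.6, 17.1 and 16.4 CPM in SE-WT libraries, against 5.40, 6.41 and 6.12 CPM in sham-WT libraries. Every SE library lay above every sham library, and the 3 SE-WT libraries differed little. Ltbr rose in SE-cKO mice (log2 fold change 1.91 ± 0.24 SE, adjusted p = 0.000829) and in SE-WT mice (1.45 ± 0.15 SE, adjusted p = 0.0033), and both calls held in every alternative. Its membrane-bound ligand subunit, Ltb, stayed low, with 0.410, 0.423 and 0.367 CPM in SE-cKO libraries, against 0, 0, 0 and 0.233 CPM in sham-cKO libraries, and 0.144, 0.124 and 0.0746 CPM in SE-WT libraries, against 0.0375, 0.128 and 0.136 CPM in sham-WT libraries.

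Tnfrsf12a encodes Fn14, the receptor of TWEAK, which is known to be induced in injured tissue. Tnfrsf12a had 14.7, 18.0 and 36.2 CPM in SE-cKO libraries, against 1.22, 5.68, 1.81 and 2.15 CPM in sham-cKO libraries, and 11.5, 15.6 and 12.2 CPM in SE-WT libraries, against 2.55, 1.53 and 2.28 CPM in sham-WT libraries. SE-cKO replicate 3 was the highest library and sham-cKO replicate 2 the highest sham library, and SE and sham libraries did not overlap. Tnfrsf12a rose in SE-cKO mice (log2 fold change 3.12 ± 0.54 SE, adjusted p = 0.00437) and in SE-WT mice (2.62 ± 0.26 SE, adjusted p = 0.00296), and both calls held in every alternative. Its gene model shares 80 bases with Hcfc1r1, which was not called (log2 fold change 0.14 in cKO and 0.30 in WT mice).

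Tnfrsf11a encodes RANK, and Tnfrsf11b encodes osteoprotegerin, the secreted decoy receptor of RANKL. Tnfrsf11a had 13.3, 11.7 and 8.34 CPM in SE-cKO libraries, against 4.44, 8.60, 3.72 and 3.61 CPM in sham-cKO libraries, and 10.6, 8.67 and 12.3 CPM in SE-WT libraries, against 3.13, 4.01 and 2.16 CPM in sham-WT libraries. Sham-cKO replicate 2, 1 of the libraries high in thalamic genes, overlapped the SE-cKO libraries, whereas the WT groups did not overlap. Tnfrsf11a rose in SE-cKO mice (log2 fold change 1.18 ± 0.34 SE, adjusted p = 0.0382; 1.53 without sham-cKO replicate 2) and in SE-WT mice (1.76 ± 0.28 SE, adjusted p = 0.0148). The cKO call was lost without sham-cKO replicate 1, 3 or 4 (adjusted p 0.0974, 0.0873 and 0.0950) and without SE-cKO replicate 1 or 2 (0.107 and 0.106), and the WT call without sham-WT replicate 1 (0.0670). Tnfrsf11b had 6.19, 7.09 and 17.6 CPM in SE-cKO libraries, against 1.51, 1.41, 1.14 and 1.83 CPM in sham-cKO libraries, and 7.28, 4.01 and 2.49 CPM in SE-WT libraries, against 2.08, 1.09 and 0.766 CPM in sham-WT libraries. SE-cKO replicate 3 stood above all others, as it did for Tnfrsf12a, and no SE library overlapped the sham libraries. Tnfrsf11b rose in SE-cKO mice (log2 fold change 2.84 ± 0.38 SE, adjusted p = 0.0011) and was not called in SE-WT mice (1.80 ± 0.53 SE, adjusted p = 0.107).

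Of the receptors known from lymphocytes and antigen-presenting cells, Tnfrsf14, which encodes HVEM, had 4.84, 2.90 and 2.81 CPM in SE-cKO libraries, against 1.36, 0.814, 0.855 and 0.816 CPM in sham-cKO libraries, and 2.35, 1.40 and 2.67 CPM in SE-WT libraries, against 0.813, 0.482 and 0.544 CPM in sham-WT libraries. SE libraries exceeded sham libraries throughout. Tnfrsf14 rose in SE-cKO mice (log2 fold change 1.92 ± 0.33 SE, adjusted p = 0.00401) and in SE-WT mice (1.79 ± 0.40 SE, adjusted p = 0.0478). The WT call was lost without sham-WT replicate 1, 2 or 3 (adjusted p 0.0873, 0.196 and 0.155) and without SE-WT replicate 1 or 3 (0.118 and 0.0882). With SE-WT replicate 1 as the only SE-WT library it was 0.0675.

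Tnfrsf13b encodes TACI, a receptor of BAFF and APRIL. Tnfrsf13b had 4.48, 8.40 and 3.88 CPM in SE-cKO libraries, against 1.21, 1.11, 1.67 and 1.98 CPM in sham-cKO libraries, and 3.64, 4.50 and 4.48 CPM in SE-WT libraries, against 1.16, 1.47 and 2.13 CPM in sham-WT libraries. The groups did not overlap, and SE-cKO replicate 2 was the highest library. Tnfrsf13b rose in SE-cKO mice (log2 fold change 1.95 ± 0.35 SE, adjusted p = 0.00493) and in SE-WT mice (1.40 ± 0.31 SE, adjusted p = 0.0464). In WT mice the call was lost without any 1 library, with adjusted p 0.131, 0.194 and 0.0649 without sham-WT replicates 1, 2 and 3 in turn and 0.0793, 0.0755 and 0.0758 without SE-WT replicates 1, 2 and 3 in turn. With SE-WT replicate 1 as the only SE-WT library it was 0.163. Its gene model shares 1390 bases with Usp22 on the other strand, and the strand setting of the counting was not given in the sources used here, so reads of the 2 genes cannot be told apart there; Usp22 was not called (log2 fold change -0.29 in cKO and -0.19 in WT mice).

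Cd40 encodes the receptor of CD40 ligand on microglia, macrophages and B cells. Cd40 had 1.52, 2.65 and 0.793 CPM in SE-cKO libraries, against 0.324, 0.689, 0.207 and 0.716 CPM in sham-cKO libraries, and 1.15, 0.456 and 0.361 CPM in SE-WT libraries, against 0.638, 0.496 and 0.170 CPM in sham-WT libraries. The cKO groups were apart by a narrow margin at SE-cKO replicate 3, and the WT groups overlapped. The rise was called in SE-cKO mice (log2 fold change 1.83 ± 0.57 SE, adjusted p = 0.0494) and not in SE-WT mice (0.58 ± 0.69 SE, adjusted p = 0.696). It was lost without any 1 of the 4 sham-cKO libraries (adjusted p 0.123, 0.0532, 0.0918 and 0.0654 for replicates 1 to 4 in turn) and without SE-cKO replicate 1 or 2 (0.0858 and 0.197).

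**Figure D2:**
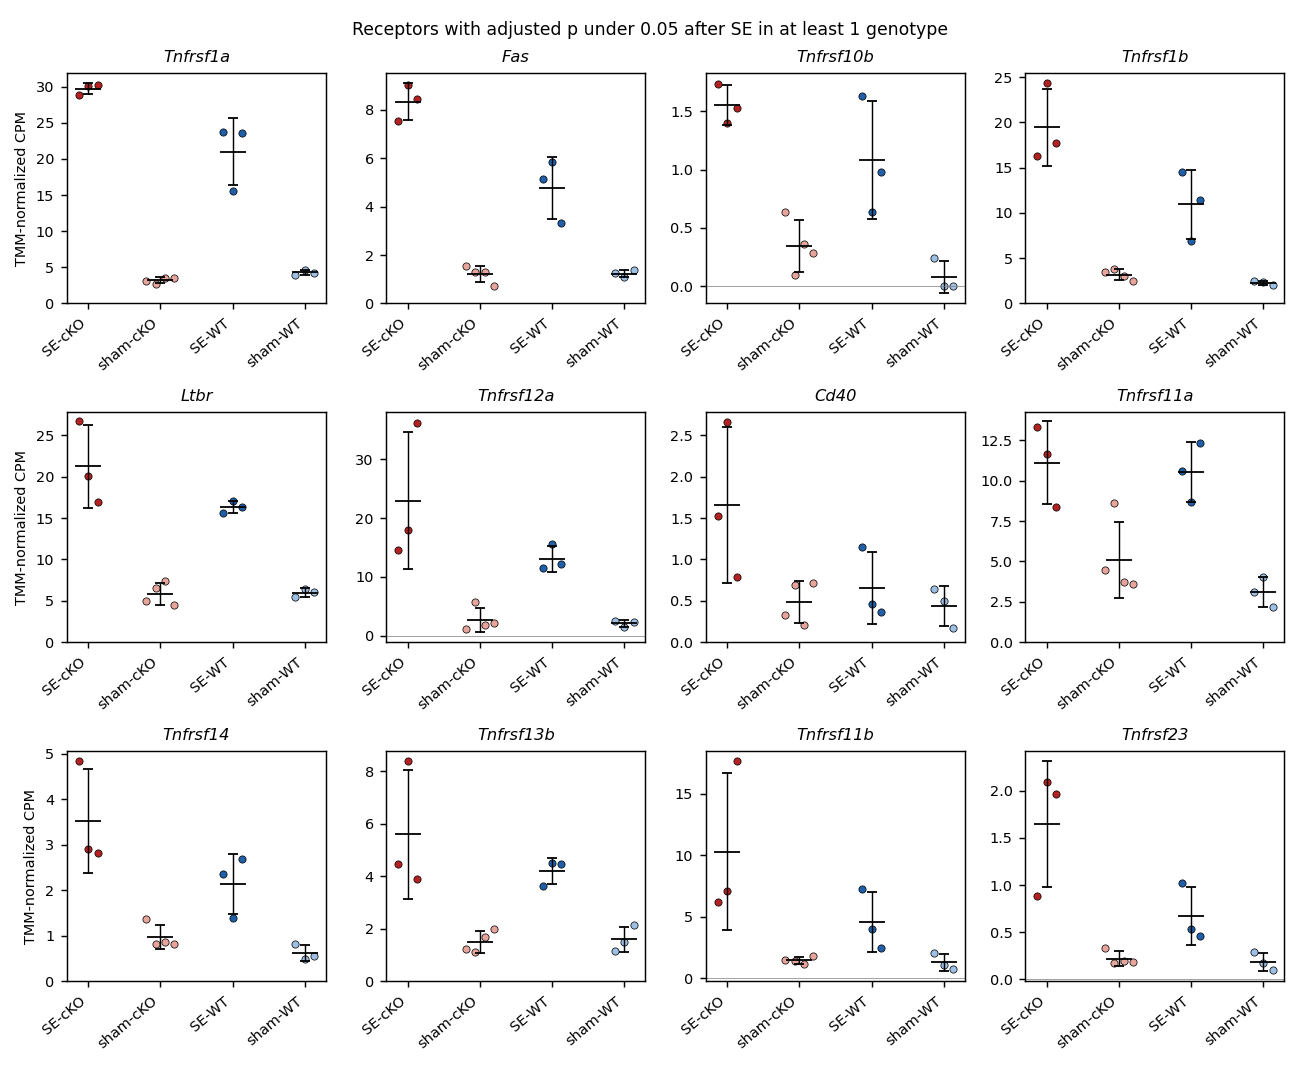
TMM-normalized CPM (y axis, linear, a scale for each panel) of the 12 receptors called in at least 1 genotype, by group; points are libraries, the long dash is the group mean and the bar its SD (n = 3, and 4 for sham-cKO). Tnfrsf1a sits between 28.9 and 30.2 CPM in the 3 SE-cKO libraries and between 2.74 and 3.54 CPM in the 4 sham-cKO libraries.

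The most abundant receptors of sham hippocampus were not called after SE. Tnfrsf19 encodes TROY, an orphan receptor known from neural progenitors and astrocytes. Tnfrsf19 had 116, 117 and 75.2 CPM in SE-cKO libraries, against 91.5, 87.1, 91.6 and 94.1 CPM in sham-cKO libraries, and 151, 98.3 and 104 CPM in SE-WT libraries, against 112, 106 and 92.9 CPM in sham-WT libraries. SE-cKO replicate 3 was the lowest and SE-WT replicate 1 the highest of all libraries, and the groups overlapped. Its log2 fold change was 0.23 ± 0.17 SE, adjusted p = 0.379 in cKO mice and 0.18 ± 0.19 SE, adjusted p = 0.651 in WT mice; without SE-cKO replicate 3 the cKO value was 0.45 and passed the threshold (adjusted p = 0.0105), and without SE-WT replicate 1 the WT value was -0.04.

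Tnfrsf21 encodes death receptor 6, known from developing neurons and oligodendrocytes. Tnfrsf21 had 62.9, 53.9 and 68.7 CPM in SE-cKO libraries, against 75.4, 67.2, 83.8 and 69.8 CPM in sham-cKO libraries, and 60.8, 46.5 and 87.4 CPM in SE-WT libraries, against 85.6, 78.5 and 81.3 CPM in sham-WT libraries. SE-cKO replicate 3 reached the sham range of its genotype and SE-WT replicate 3 lay above its own, and neither difference was called (log2 fold change -0.21 ± 0.12 SE, adjusted p = 0.268 in cKO mice and -0.34 ± 0.22 SE, adjusted p = 0.425 in WT mice). Tnfrsf25 encodes death receptor 3, the receptor of TL1A. Tnfrsf25 had 3.19, 8.96 and 7.43 CPM in SE-cKO libraries, against 4.44, 2.15, 4.19 and 5.08 CPM in sham-cKO libraries, and 1.32, 1.47 and 3.71 CPM in SE-WT libraries, against 2.85, 4.77 and 5.60 CPM in sham-WT libraries. The estimates had opposite signs in the genotypes and neither was called (log2 fold change 0.76 ± 0.39 SE, adjusted p = 0.207 in cKO mice and -1.03 ± 0.47 SE, adjusted p = 0.27 in WT mice). Among the remaining receptors, Cd27 and Tnfrsf18 (GITR), both known from T cells, passed the filter in no test and reached at most 22 and 20 counts in a library.

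**Figure D3:**
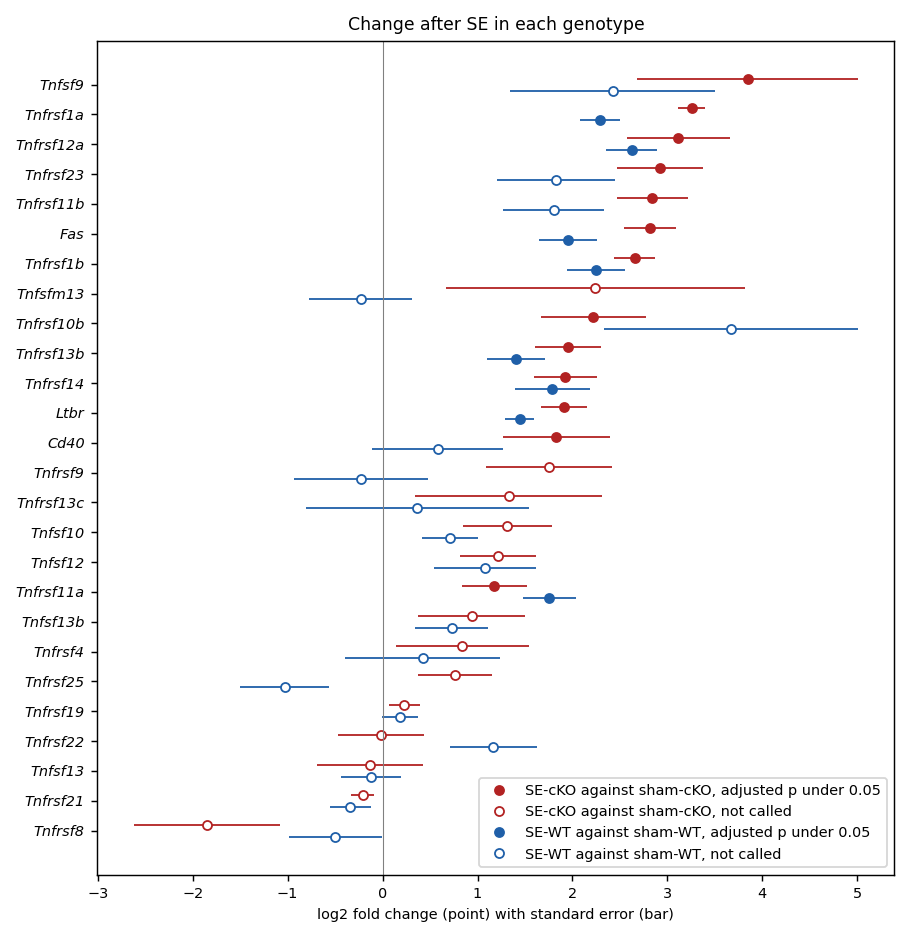
Log2 fold change (x axis) with its standard error for the members tested in both genotypes that had counts in both sham groups; red is SE-cKO against sham-cKO, blue SE-WT against sham-WT, and filled points have an adjusted p under 0.05. All filled points lie to the right of 0, and Tnfrsf1a reaches 3.26 in cKO mice and 2.29 in WT mice.

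The 6 members called in cKO mice alone were Cd40, Tnfrsf10b, Tnfrsf11b, Tnfrsf23, Tnfsf8 and Tnfsf9, and whether the effect of SE itself differed between genotypes was tested as an interaction over all 13 libraries. No member was called by edgeR among 34 tested (lowest adjusted p = 0.136, 5 members with an unadjusted p under 0.05), limma voom called 0 and DESeq2 called 1, against 0.0841% of all genes higher and 0.0752% lower in edgeR and 1.97% and 2.00% in DESeq2. In edgeR, 2834 of 22596 genes had an unadjusted p under 0.05. The lowest adjusted p of a member belonged to Tnfrsf1a, whose log2 fold change was 0.97 ± 0.23 SE, adjusted p = 0.136 larger in cKO than in WT mice. DESeq2 called it with an adjusted p of 0.00942. Tnfrsf25 had an interaction of 1.79 ± 0.65 SE, adjusted p = 0.272, with all estimates under the alternatives on the same side of 0. Tnf, Tnfsf11 and Tnfsf14 had 0 counts in every sham library, and edgeR's standard errors for their interaction were 2747, 960 and 6696. The test could therefore not call a difference for them. A difference in the effect of SE on the 6 members called in cKO mice alone was thus not shown at 3 or 4 mice a group.

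The comparison of SE-cKO with SE-WT mice asked whether members differed between genotypes after SE. No member was called by edgeR among 34 tested (lowest adjusted p = 0.326, 10 with an unadjusted p under 0.05), limma voom called 0 and DESeq2 called 1; edgeR called 0% of all genes in either direction, and DESeq2 1.81% higher and 1.34% lower. Of all genes tested, 2046 of 21126 had an unadjusted p under 0.05. Estimates were higher in SE-cKO mice for 27 members and lower for 7, beside a median log2 fold change of 0.000832 over all genes tested. Every SE-cKO library lay above every SE-WT library for 8 of the 34 (23.5%), against 7.65% of all genes tested, and below for 1 (2.94%), against 7.39%. The 8 were Tnfrsf9, Tnf, Fas, Tnfrsf1b, Ltb, Tnfrsf1a, Tnfrsf14 and Tnfrsf13c, and the 1 below was Tnfrsf8. Their values were looked at before they were named. Of the 34, 5 passed the low-count filter only with the SE-cKO libraries included. Of those 5, Fasl, Ltb, Tnfrsf26 and Tnfsf14 were among the 27 with higher estimates and Tnfrsf17 was among the 7 with lower ones. Neither their estimates nor the place of Ltb among the 8 is independent support.

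Tnfrsf9 encodes CD137, the receptor of the Tnfsf9 ligand. It had 1.00, 1.51 and 0.866 CPM in SE-cKO libraries, against 0.399, 0.221 and 0.174 CPM in SE-WT libraries, with a log2 fold change of 2.11 ± 0.53 SE, adjusted p = 0.326; DESeq2 gave an adjusted p of 0.0230. Tnf had 1.83, 2.78 and 2.64 CPM in SE-cKO libraries, against 1.05, 0.650 and 0.174 CPM in SE-WT libraries (log2 fold change 1.97 ± 0.62 SE, adjusted p = 0.391). The largest SE-WT value was under the smallest SE-cKO value for both. Of the more abundant receptors, Tnfrsf19 and Tnfrsf21 had estimates below 0 (log2 fold change -0.18 ± 0.25 SE, adjusted p = 0.9 and -0.04 ± 0.24 SE, adjusted p = 0.982). Estimates above 0 were 0.52 ± 0.20 SE, adjusted p = 0.463 for Tnfrsf1a, 0.85 ± 0.30 SE, adjusted p = 0.429 for Tnfrsf1b, 0.82 ± 0.28 SE, adjusted p = 0.417 for Fas and 0.83 ± 0.35 SE, adjusted p = 0.512 for Tnfrsf12a. Tnfrsf8, which encodes CD30, had 0.0965, 0.218 and 0.250 CPM in SE-cKO libraries, against 0.351, 0.664 and 0.821 CPM in SE-WT libraries (log2 fold change -1.68 ± 0.65 SE, adjusted p = 0.463). Tnfsf8, its ligand, had an estimate of the opposite sign (1.13 ± 0.60 SE, adjusted p = 0.609). None of these passed the threshold in edgeR, and a p above it does not show that the genotypes were alike.

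**Figure D4:**
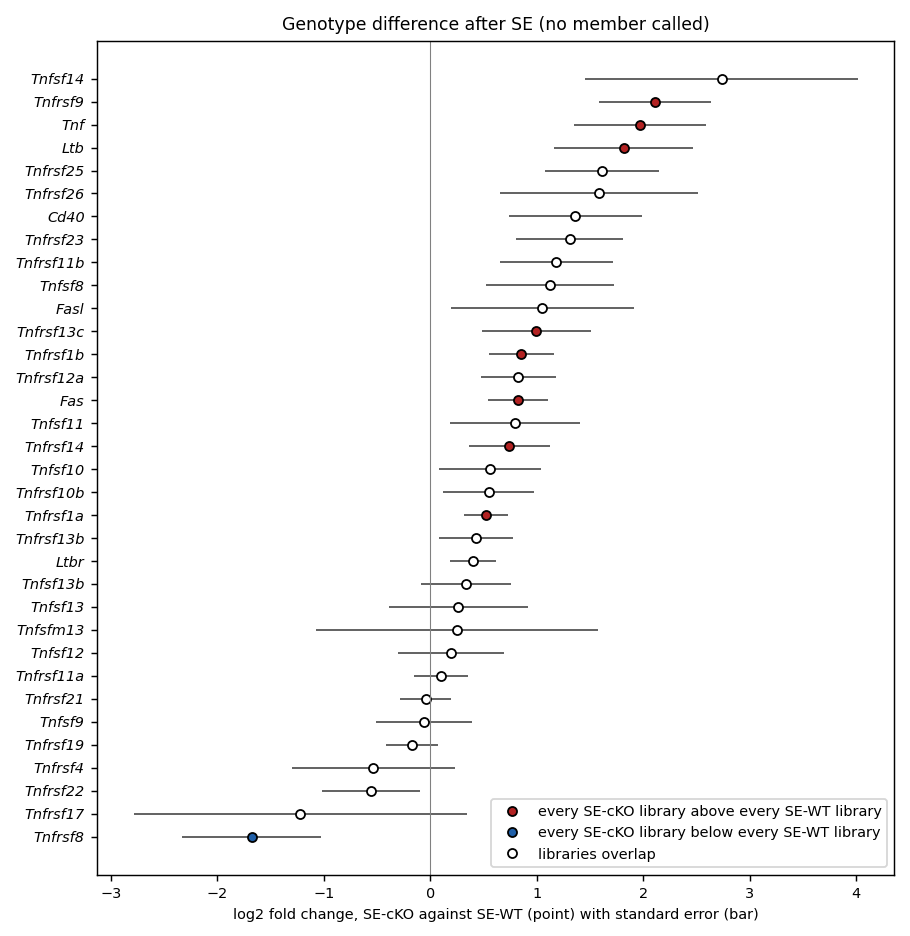
Log2 fold change (x axis) of SE-cKO against SE-WT for the 34 members tested, with its standard error; red points mark members whose SE-cKO libraries all lay above the SE-WT libraries, blue the opposite and white an overlap. Tnfrsf9 (2.11) and Tnf (1.97) are among the estimates farthest to the right and Tnfrsf8 (-1.68) is the farthest to the left, and no member was called.

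In sham mice, no member was called between sham-cKO and sham-WT by edgeR among 27 tested (lowest adjusted p = 0.868, 3 with an unadjusted p under 0.05), by DESeq2, which called 0.0724% of all genes higher and 0.00966% lower, or by limma voom. Sham-cKO libraries lay above sham-WT libraries without overlap for 2 of the 27 members and below for 1, against 3.69% and 4.02% of all genes tested. A single member of 27 is near those shares, and 1152 of 20785 genes had an unadjusted p under 0.05. The 2 above were Tnfrsf14 and Tnfrsf17 (log2 fold change 0.66 ± 0.35 SE and 4.41 ± 1.33 SE, adjusted p = 0.868 for each). Tnfrsf17 passed the filter only with the sham-cKO libraries included. The 1 below was Tnfrsf1a, at 3.10, 2.74, 3.54 and 3.48 CPM in sham-cKO libraries, against 3.98, 4.61 and 4.27 CPM in sham-WT libraries (log2 fold change -0.40 ± 0.17 SE, adjusted p = 0.868). Tnfrsf1a thus had an estimate below 0 between the sham groups and above 0 between the SE groups.

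Downstream genes of the pathway were described from 5 lists, whose counts stand beside 13.8% of all genes higher and 8.92% lower in the cKO comparison and 4.57% higher and 0.832% lower in the WT comparison; a single gene called in a list of 12 or 7 is near those shares. Of 12 genes of the death receptor and TNFR1 complexes, 6 rose and 1 fell in SE-cKO against sham-cKO mice, and 1 rose in SE-WT against sham-WT mice. Casp8, the initiator caspase of death receptors, rose in both (log2 fold change 2.58 ± 0.21 SE, adjusted p = 9.35e-05 and 1.71 ± 0.21 SE, adjusted p = 0.00568). Birc3, an inhibitor of apoptosis that ubiquitinates the TNFR1 complex, rose in cKO mice (2.28 ± 0.20 SE, adjusted p = 0.000153) and was not called in WT mice (0.96 ± 0.32 SE, adjusted p = 0.143). The same held for the kinase Ripk1 (1.19 ± 0.14 SE, adjusted p = 0.000702 in cKO and 0.72 ± 0.16 SE, adjusted p = 0.0531 in WT mice) and the caspase-8 regulator Cflar (1.12 ± 0.15 SE, adjusted p = 0.00112 in cKO and 0.39 ± 0.15 SE, adjusted p = 0.193 in WT mice). The list's median log2 fold change was 1.15 in cKO and 0.55 in WT mice, beside -0.000587 and 0.0152 over all genes tested.

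Of 12 subunits, inhibitors and kinases of NF-kB, 7 rose in SE-cKO mice and 1 in SE-WT mice, with medians of 0.98 and 0.34. Nfkb2, the precursor of the noncanonical subunit, rose in both genotypes (log2 fold change 2.22 ± 0.17 SE, adjusted p = 8.73e-05 in cKO and 1.88 ± 0.26 SE, adjusted p = 0.00808 in WT mice). The inhibitor genes Nfkbia (1.26 ± 0.18 SE, adjusted p = 0.00153) and Nfkbie (1.45 ± 0.25 SE, adjusted p = 0.00413) and the subunit gene Nfkb1 (0.67 ± 0.11 SE, adjusted p = 0.00391) rose in cKO mice. Of the NF-kB target genes, 8 of 12 tested rose and 1 fell in cKO mice and 4 of 11 rose in WT mice, with medians of 3.12 and 2.37. Between the sham groups only 7 of the 12 passed the filter. The others were tested here only through their SE level, and their calls and fold changes are no independent support. Icam1, a leukocyte adhesion molecule, rose in both (log2 fold change 3.03 ± 0.24 SE, adjusted p = 8.73e-05 in cKO and 1.62 ± 0.29 SE, adjusted p = 0.0244 in WT mice), and so did the chemokine Cxcl10 (7.10 ± 0.90 SE, adjusted p = 0.000863 and 6.58 ± 1.26 SE, adjusted p = 0.0302). Tnfaip2 (3.22 ± 0.34 SE, adjusted p = 0.000332) and the adhesion molecule Vcam1 (1.68 ± 0.19 SE, adjusted p = 0.000466) rose in cKO mice.

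Of the 7 TRAF adaptors, which couple the receptors to kinases, 3 rose and 1 fell in SE-cKO mice and 0 were called in SE-WT mice (medians 0.52 and 0.09). Traf1 (1.96 ± 0.40 SE, adjusted p = 0.00941), Traf4 (0.93 ± 0.17 SE, adjusted p = 0.00551) and Traf2 (0.52 ± 0.15 SE, adjusted p = 0.0426) rose and Traf3, a brake on noncanonical NF-kB signaling, fell (-0.60 ± 0.19 SE, adjusted p = 0.0484). Among 7 superfamily genes with other symbols, Eda2r, the ectodysplasin A2 receptor, was the 1 that rose, both in cKO mice (2.73 ± 0.30 SE, adjusted p = 0.00045, with 4 tested) and in WT mice (1.74 ± 0.38 SE, adjusted p = 0.046, with 5 tested). No gene of the 5 lists was called in SE-cKO against SE-WT mice.

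Markers of several other cell types changed after SE as well, and their part in the results was not tested. All 10 microglial markers rose in both genotypes, with a summed level of 1397 to 2169 CPM in SE-cKO and 374 to 409 CPM in sham-cKO libraries, and of 1272 to 1641 CPM in SE-WT and 392 to 427 CPM in sham-WT libraries. All 6 markers of infiltrating monocytes rose in cKO mice and 1 in WT mice, with sums of 139 to 265 CPM in SE-cKO and 43.8 to 55.5 CPM in sham-cKO libraries, and of 66.7 to 115 CPM in SE-WT and 41.5 to 43.2 CPM in sham-WT libraries. Between the sham groups 5 of these 6 passed the filter, and the other was tested only through its SE level. Of 7 astrocytic markers, 5 rose in each genotype, with sums of 8887 to 9548 CPM in SE-cKO and 1536 to 1768 CPM in sham-cKO libraries, and of 5753 to 5984 CPM in SE-WT and 1587 to 1745 CPM in sham-WT libraries. Of 4 markers of oligodendrocyte precursors, 4 rose in cKO mice and 1 in WT mice, with sums of 289 to 327 CPM in SE-cKO and 158.5 to 180 CPM in sham-cKO libraries, and of 204 to 260 CPM in SE-WT and 163 to 176 CPM in sham-WT libraries. Of 8 markers of hippocampal neurons, 4 fell in cKO mice and 2 in WT mice, with median log2 fold changes of -1.002 and -0.69. Of 7 endothelial markers, 3 rose in cKO mice and 0 in WT mice, and of 6 oligodendrocyte markers, 1 and 0 rose. Of the neutrophil markers, 1 of 4 tested rose in cKO mice and 0 of 2 tested in WT mice. Of all genes, 13.8% rose in cKO mice and 4.57% in WT mice. The monocytic, astrocytic and precursor sums did not overlap between SE-cKO and SE-WT libraries. The sums of every other marker list did, the microglial sums among them. Ccr2 of the monocyte list overlapped, at 15.8, 30.2 and 5.68 CPM in SE-cKO and 8.78, 1.74 and 0.671 CPM in SE-WT libraries. None of the 6 monocyte markers was called in SE-cKO against SE-WT mice, so a genotype difference in monocytes was not shown. Of the T cell markers, Cd3e had 0 counts in all 13 libraries and Cd3d reached 4 counts in 1 SE-cKO library, and the T cell sums were 1.37 to 1.83 CPM in SE-cKO and 0.233 to 1.08 CPM in sham-cKO libraries, and 0.821 to 6.14 CPM in SE-WT and 0.0851 to 3.19 CPM in sham-WT libraries. The B cell sums were 0.999 to 2.18 CPM in SE-cKO and 0.298 to 1.07 CPM in sham-cKO libraries, and 1.11 to 2.14 CPM in SE-WT and 0.272 to 0.513 CPM in sham-WT libraries.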

How the data were processed

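Hippocampal RNA of 13 mice was sequenced from TruSeq stranded total-RNA libraries, 1 per mouse; samples labelled as biological replicates were grouped by the genotype and treatment in the labels, and p-values measure the spread between them. Per the labels, the authors converted reads with bcl2fastq 2.20.0, trimmed them with Trimmomatic, mapped them with HISAT2 2.1.0 to mm10 and quantified genes with StringTie 2.1.3b. The deposited table holds whole read counts, FPKM and TPM per gene and library. The deposited TPM values by the authors were used only to compare levels between genes and the deposited FPKM values were not used. The strand setting and read filters were not given in the sources used here.

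Genes with low counts were removed by filterByExpr (at least 10 counts in enough libraries and 15 in all), and the remaining counts were TMM-normalized. EdgeR 4.0.16, run under R 4.3.3, supplied the quasi-likelihood test, which was fitted to the 2 groups of each comparison, or to all 13 libraries for the interaction. P-values were adjusted by the method of Benjamini and Hochberg over all genes tested, with a threshold of 0.05. The tests were also run on simulated data, and the outcome is not reported here. Levels are TMM-normalized CPM over all 13 libraries.

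Values per library are given for members called in any test, for Tnf, and for members with a mean TPM of at least 2; up to 4 genes of each pathway list with the smallest p in SE-cKO against sham-cKO are named. Members named beside these in the genotype comparison and Ltb and Tnfsf14 were chosen after their values were seen. The members and lists were chosen with earlier results of these data known. Alternatives were DESeq2 1.42.0, limma voom 3.58.1 with quality weights, RLE size factors, no filter, the replicate number as a block, Xist as a covariate for the unlabelled sex, all groups in 1 fit, and leaving out each library; leaving out the 3 libraries with striatal or thalamic signal or the 2 libraries with another style of title was added after seeing the data.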

Additional observations from a re-analysis of the deposited data

Results flagged for a closer look

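In the sham-cKO group, the only group with 4 libraries, 1 library stood apart from the other 3 by Dixon's criterion for 4 of the 17 members given per library that had counts there; chance flags about 1 in 20 groups. Tnfrsf11a was at 8.60 CPM in sham-cKO replicate 2, against 3.61 to 4.44 CPM in the other sham-cKO libraries. Tnfrsf14 was at 1.36 CPM in sham-cKO replicate 1, against 0.814 to 0.855 CPM in the others. Tnfrsf23 was at 0.336 CPM in sham-cKO replicate 1, against 0.172 to 0.193 CPM in the others. Ltb was at 0.233 CPM in sham-cKO replicate 4, against 0 counts in the others. EdgeR's interaction test called no member, which does not show that the effect of SE was alike in the genotypes.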

How the results depend on the processing

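The count of members called in SE-WT against sham-WT mice was 10 and was the least stable: 5 with the replicate block, 4 to 7 with 1 library left out, 8 with no filter, 7 without the libraries high in striatal genes or thalamic genes (1 SE-WT library left, assumed to vary like the sham-WT libraries), and 10 to 13 in the other alternatives. In SE-cKO against sham-cKO mice the count of 16 ran between 13 and 18 over all alternatives. In SE-cKO against SE-WT mice and in the interaction DESeq2 called 1 member each, where edgeR called 0, and between sham groups no alternative called any. Of the 26 calls, 15 held in every alternative, 3 in WT mice (Ltbr, Tnfrsf12a and Tnfrsf1a) and 12 in cKO mice. Over 380 refits of these calls, 310 kept the call, 70 lost it and 0 reversed. The sign of Tnfrsf19 reversed in SE-WT against sham-WT mice without SE-WT replicate 1 (log2 fold change -0.043, beside an uncalled 0.18; -0.043 to 0.30 over the fits that left out 1 library); the cause was not tested. Whether the same replicate numbers marked pairs was not settled. The correlation of same-numbered deviations ran between -0.155 and 0.445 and was not above 0.1 for every pair in any comparison. With 3 same-numbered libraries in each group, this cannot exclude pairing. The fall of the WT count from 10 to 5 with the block therefore stays a limit of the WT result. Ligands were limited by depth: at these totals, a level under about 0.0362 to 0.0510 CPM could not be told from 0.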
